A study of Schizosaccharomyces pombe with 6 samples.

Results

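Transfer RNA (tRNA) genes and the DNA within 1 kb on either side of them were examined for occupancy by RPA, the single-stranded DNA binding protein, in fission yeast (Schizosaccharomyces pombe). Members were the array probes whose midpoint lay within 1 kb of a nuclear tRNA gene of the reference annotation, a rule that uses position alone. They were 761 of 42641 nuclear probes, of which 750 carried no outlier flag and 60 of those overlapped a tRNA gene itself. In scope were 151 of the 171 annotated nuclear tRNA genes, those on chromosomes II and III and on chromosome I below position 3700000, where array and reference positions matched. Genes whose 1 kb flanks overlapped were joined, which gave 107 loci. Of these, 101 loci with 135 genes had 5 to 16 probes (median 7) and were tested, and 6 loci with 16 genes had no probe. A tested locus held 1 tRNA gene in 91 cases and several in 10.

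The 6 arrays, each with 2 colours, compared chromatin immunoprecipitated with Ssb1, the large RPA subunit named in the series title, with its own input. Both groups were cdc25-22 mutants: 3 arrays came from cdc25-22 cells, labelled WT, and 3 from cdc25-22 rad3∆ cells, which lack the Rad3 kinase. All cells grew in EMM6S at 25 °C, were blocked for 4 h at 36.5 °C, were returned to 25 °C and then received 6 mM hydroxyurea (HU), so no sample was free of HU. The titles carry the number 60 without a unit, and the labels give RNA as the molecule, so the reading as IP and input DNA is an assumption. All values are log2(IP/input), where 0 is the median nuclear probe of the array and not absence of RPA. On each rad3∆ array the input of 24 of the 32 probes inside rad3 was not well above background, against 0 on each WT array. At the member probes the IP signal was well above background for 97.1% to 99.7% of probes on 5 arrays and for 86.5% on rad3∆ replicate 2, the dimmest array. Correlations between arrays over the 101 loci were 0.85 to 0.93 within a strain and 0.83 to 0.94 between strains. The labels do not say that replicates were separate cultures, so the p-values measure the spread between these arrays.

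As background, tRNA genes are transcribed by RNA polymerase III. The factor TFIIIC recognises the A box and the B box inside the gene, and brings in TFIIIB, which recruits the polymerase. These bound complexes can slow or stop replication forks, and in fission yeast clusters of tRNA genes also flank the centromeres, where they limit the spread of heterochromatin. RPA coats single-stranded DNA, as forms at forks short of nucleotides in HU, and the coated DNA brings in Rad3 (ATR in mammals), the kinase of the replication checkpoint.

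The genes below were chosen because they include the highest dispersed locus, the lowest loci and the largest strain difference, and because identical copies of some lay at both ends of the range. Each is given 5′ to 3′ on its own strand, from RefSeq assembly ASM294v3. Capitals mark the B box, searched as GTTCNANNC on the gene's strand, and a sequence without capitals has no match.
SPBTRNAPRO.04 (proline, chrII:1825787-1825858, minus strand), identical to SPBTRNAPRO.06 (chrII:2319292-2319363, plus strand): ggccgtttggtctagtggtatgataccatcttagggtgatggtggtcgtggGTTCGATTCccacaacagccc
SPATRNAALA.01 (alanine, chrI:934665-934738, minus strand), identical to SPBTRNAALA.07 (chrII:285676-285749, plus strand): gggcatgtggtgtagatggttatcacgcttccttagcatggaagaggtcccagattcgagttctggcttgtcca
SPBTRNAGLY.06 (glycine, chrII:570156-570226, plus strand), identical to SPBTRNAGLY.03 (chrII:180994-181064, minus strand): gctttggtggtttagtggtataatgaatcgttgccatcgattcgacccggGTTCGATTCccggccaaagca
SPATRNALYS.04 (lysine, chrI:2684683-2684765, minus strand), identical to SPCTRNALYS.12 (chrIII:1475034-1475116, plus strand): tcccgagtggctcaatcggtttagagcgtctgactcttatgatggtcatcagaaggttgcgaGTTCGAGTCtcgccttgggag
SPATRNAARG.01 (arginine, chrI:3443055-3443144, plus strand), the highest dispersed locus: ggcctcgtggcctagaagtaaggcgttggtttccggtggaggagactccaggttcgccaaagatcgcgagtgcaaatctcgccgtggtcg
SPBTRNAGLU.08 (glutamate, chrII:4107639-4107710, plus strand), the largest strain difference: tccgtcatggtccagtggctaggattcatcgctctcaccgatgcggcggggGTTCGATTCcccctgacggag
The B box was found in 139 of the 151 genes (92.1%), against 2.58% of 80 bp windows of the same part of the genome searched on both strands. SPBTRNAASP.05 counted as without it. Read on its annotated strand, it is the reverse complement of the other aspartate copies, and its flanking windows below follow that strand too. TATA occurred on the gene's strand within 50 bp upstream of 119 genes (78.8%) and of 33.5% of protein-coding genes, and TTTT, the letters at which polymerase III stops, within 30 bp downstream of 145 genes (96.0%) and of 34.4% of protein-coding genes.

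The RPA IP signal relative to input was high at about every second tRNA locus, in both strains. The 6 arrays included no control IP, so unspecific IP signal was not measured. The mean over the 101 loci was 0.44 ± 0.08 (SD, n = 3) on the WT arrays and 0.45 ± 0.11 (SD, n = 3) on the rad3∆ arrays. It was 0.47, 0.35 and 0.49 on WT replicates 1 to 3 and 0.53, 0.32 and 0.49 on rad3∆ replicates 1 to 3. The strains overlapped throughout, and the loci lay above the 2 kb tiles of the remaining genome on all 6 arrays, by 0.47 ± 0.09 (SD, n = 3) in WT and 0.48 ± 0.13 (SD, n = 3) in rad3∆. A call needed an adjusted p under 0.05 (limma, Benjamini-Hochberg over all 5175 loci and tiles): enriched features had a fitted value no lower than 0.5 (1.41-fold) and depleted ones no higher than -0.5. The fit had 1 dye term shared by the strains. In the mean of the strains it gave the dye-swapped arrays the weight of all others together. The fitted value of a strain is thus not a plain mean and draws in part on the other strain's arrays. Fitted strain differences are differences of plain means. In WT, 56 of 101 tRNA loci were enriched, against 18.0% of all loci and tiles, and 9 were depleted, against 20.9%. In rad3∆, 55 were enriched (18.8% of all) and 8 were depleted (20.5% of all). Both strains called 50 loci enriched, against 15.0% of all features, and 8 depleted, against 17.2%. The fitted medians were 0.51 and 0.54, against -0.01 over tiles in each strain. Centring each array on its mode left 46 and 44 loci enriched, against 12.3% and 13.1% of all features, and shifted the depleted share of all features to 27.0% and 25.7%.

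The signal was narrow and, outside the gene itself, highest within 250 bp. Around the 90 dispersed loci with a single gene (those more than 50 kb from a centromere gap, defined below), probes within 250 bp of the gene read 0.81, 0.57 and 0.67 on the WT arrays and 0.91, 0.49 and 0.75 on the rad3∆ arrays (188 probes). Probes beyond 1 kb, up to 5 kb away, read 0.11, 0.12 and 0.19 on the WT arrays and 0.08, 0.12 and 0.13 on the rad3∆ arrays (2496 probes). The near probes were thus higher on every array, by 0.55 ± 0.14 (SD, n = 3) in WT and 0.61 ± 0.23 (SD, n = 3) in rad3∆. Between 250 and 500 bp the level was 0.32 ± 0.06 in WT and 0.35 ± 0.12 in rad3∆, and from there to 1 kb it was 0.21 ± 0.08 and 0.22 ± 0.07 (SD, n = 3 each). The upstream and downstream sides within 250 bp read 0.72 ± 0.10 and 0.65 ± 0.15 in WT and 0.76 ± 0.24 and 0.67 ± 0.18 in rad3∆ (SD, n = 3 each). Upstream was above downstream on all 6 arrays, by 0.07 ± 0.06 in WT and 0.08 ± 0.06 in rad3∆ (SD, n = 3 arrays each), a difference near its own spread. The IP signal itself peaked there, while the strain means of the input lay between -0.09 and 0.17 at all distances outside the gene. Only 2 probes had their midpoint inside such a gene, so the level over the gene bodies was not resolved.

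**Figure D1:**
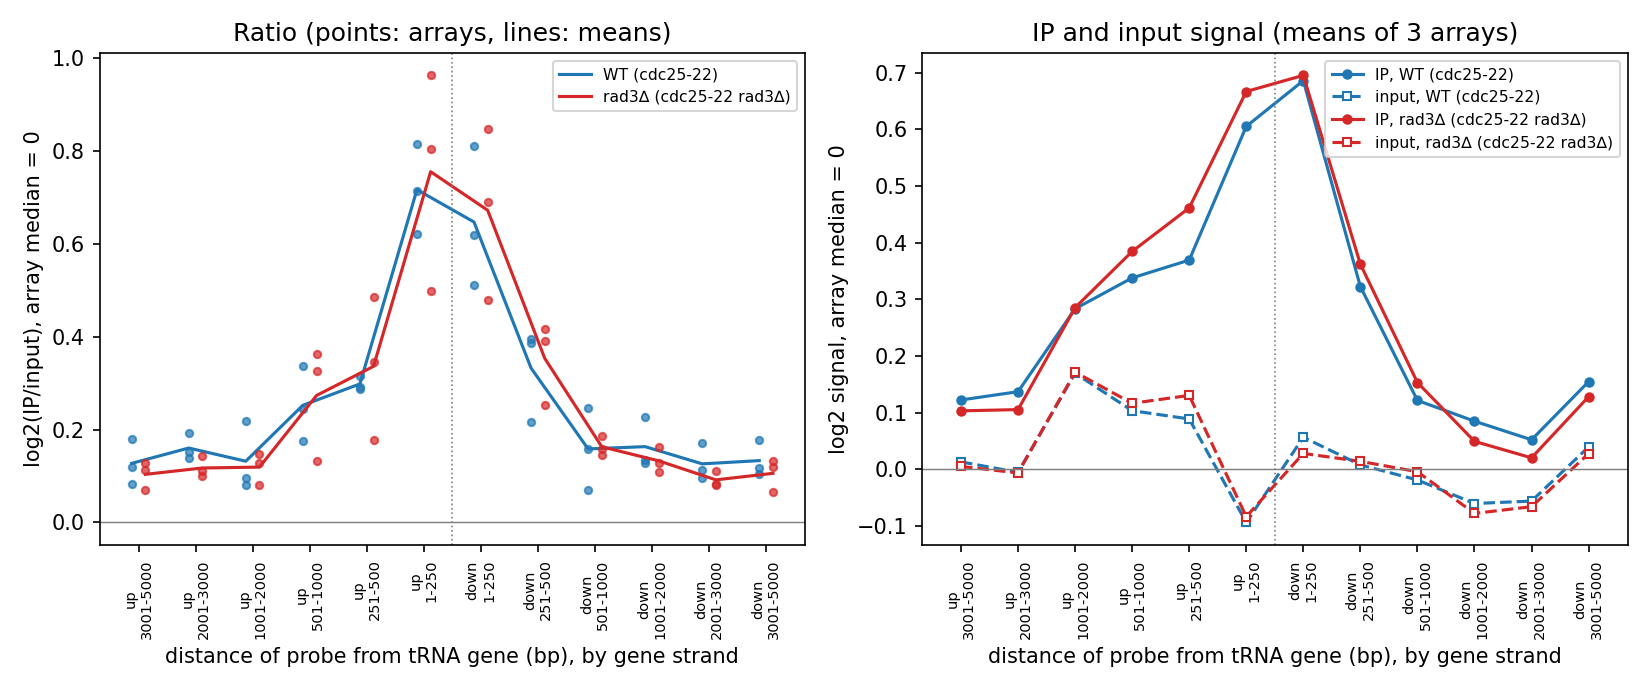
Mean log2(IP/input) (left, points are arrays and lines are strain means) and mean log2 IP and input signals (right) by distance of the probe from the tRNA gene, upstream and downstream by the gene's strand, at dispersed single-gene loci. The ratio is highest within 250 bp on both sides, at 0.65 to 0.76 as strain means, and lies at 0.09 to 0.16 beyond 1 kb.

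Each locus was also set against its own surroundings, the probes 2 to 5 kb beyond its edges, which could be done for 100 loci. In WT, 37 loci were above their surroundings (limma, adjusted p under 0.05), against 8.57% of all features, and 0 were below, against 7.58%. In rad3∆, 45 were above (12.0% of all) and 0 were below (11.6% of all). At an unadjusted p under 0.05, 4 and 3 loci were below, against 16.6% and 19.4% of all features. The locus value exceeded that of its surroundings at 81 loci in WT and 83 in rad3∆, whether called or not, as it did at 47.9% and 46.6% of tiles, and 33 loci were called above in both strains, against 6.61% of all features. These counts fell when the dye-swapped array of the strain was left out. Without WT replicate 3 the WT count was 0 (0% of all features). Without rad3∆ replicate 3 the rad3∆ count was 4 (0.445% of all). The strain then had no dye-swapped array, and its dye term came from the other strain alone. With all arrays and no dye term, 39 and 48 loci were above, against 8.93% and 11.97% of all features. Whether the fall came from those arrays or from the fit was not tested. With the slide as a block, which pairs same-numbered arrays, 53 and 59 loci were above and 2 were below in each strain, SPATRNALYS.01 and SPBTRNASER.06 in WT and SPBTRNALEU.05 and SPBTRNATRP.03 in rad3∆, against 13.9% and 16.7% above and 13.4% and 16.8% below among all features.

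The largest local rises, as the mean of both strains, were at the centromeric cluster SPCTRNAALA.12 to SPCTRNALYS.10 (0.97), at the proline gene SPATRNAPRO.01 (0.93) and at the aspartate gene SPBTRNAASP.04 (0.89), with limma adjusted p-values of 7.9e-06, 7.9e-06 and 1.1e-05. The lowest were SPBTRNATRP.03 (tryptophan, -0.25), SPBTRNASER.06 (serine, -0.23) and SPATRNALYS.01 (lysine, -0.22), at adjusted p-values of 0.016, 0.017 and 0.016 for the mean of the strains, although neither strain alone passed. Those 3 small deficits were not stable, since with flanks of 0.5 kb they were -0.06, -0.00 and 0.07.

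The level of a tRNA locus went with that of the domain around it, as the level of tiles did. Across the 100 loci the level correlated with that of the surroundings (r = 0.85, against 0.90 over 5072 tiles), which share arrays and neighbouring sequence. In WT, 29 of 32 loci were enriched where the surroundings were at or above 0.5, 23 of 40 where they were between 0 and 0.5, 3 of 15 between -0.5 and 0, and 0 of 13 below -0.5. The shares of tiles enriched in the same classes were 70.7%, 18.6%, 0.742% and 0%. All 9 depleted loci of WT lay in that last class, where 83.8% of tiles were depleted. From the highest class of surroundings to the lowest, the median local difference in WT was 0.24, 0.25, 0.21 and 0.12 at tRNA loci, against -0.03, 0.00, -0.02 and -0.00 at tiles. In rad3∆ the enriched loci were 21 of 24, 31 of 48, 2 of 15 and 0 of 13 by the same classes, against 63.7%, 24.6%, 1.58% and 0% of tiles.

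**Figure D2:**
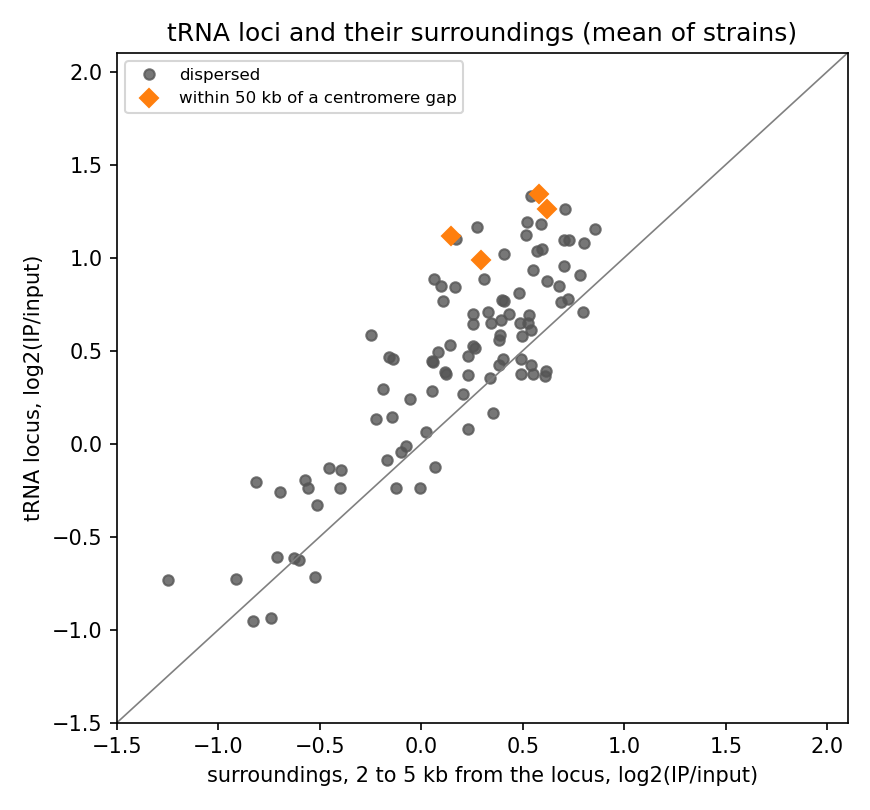
Level of each of 100 tRNA loci (vertical) against the level of the probes 2 to 5 kb beyond its edges (horizontal), both as log2(IP/input) averaged over the strains, with the line of equality. Of the 100 loci, 84 lie above the line, and loci in low domains are low themselves.

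The 6 lowest loci by the mean of the strains were all single dispersed genes. SPATRNAALA.01, between erg31 and SPAC1687.17C, read -0.67, -0.67 and -1.02 on the WT arrays and -0.78, -0.75 and -1.37 on the rad3∆ arrays, with a fitted mean of -0.96 ± 0.06 (SE; limma adjusted p = 3.7e-07). SPBTRNAPRO.04, beside the clathrin light chain gene clc1, read -0.19, -0.89 and -1.10 in WT and -0.58, -1.01 and -1.33 in rad3∆ (fitted -0.94 ± 0.10 SE, adjusted p = 3.5e-06). Both loci were negative on all 6 arrays, and their differences from the surroundings, -0.13 and -0.20, did not pass (limma adjusted p = 0.20 and 0.22). SPATRNALYS.04 was the exception among them: its fitted level was -0.73 ± 0.10 (SE) with an adjusted p of 2.9e-05 in limma, but it stood 0.52 above its surroundings as the mean of the strains (adjusted p = 0.0017). By strain that difference passed in rad3∆ (0.67, adjusted p = 0.0041) and not in WT (0.36, adjusted p = 0.086). SPATRNATHR.01 (-0.73), SPBTRNAPHE.03 (-0.72) and SPATRNAALA.03, annotated as scn1 (-0.63), completed the set, each depleted in both strains. Restricting the probes to those well above background in every channel brought SPATRNALYS.04 and SPATRNAALA.03 to -0.45 and -0.47, short of the limit of -0.5, and left too few probes to test SPATRNATHR.01. Flanks of 0.5 kb brought SPBTRNAPHE.03 and SPATRNAALA.03 to -0.38 and -0.43.

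Among the 6 highest loci, 2 lay beside centromeres and are described below, and 4 were dispersed. SPATRNAARG.01, between pfd6 (a prefoldin subunit) and rpt5 (a proteasome ATPase), read 1.58, 1.09 and 1.46 on the WT arrays and 1.49, 1.02 and 1.27 on the rad3∆ arrays (fitted mean 1.33 ± 0.09 SE, limma adjusted p = 3.6e-07). The serine and methionine pair SPATRNASER.01 and SPATRNAMET.01 at chrI:1096369-1096545, beside hus5 (the SUMO conjugating enzyme), read 0.90, 1.60 and 1.45 in WT and 1.05, 0.98 and 1.33 in rad3∆. The lowest of these 12 values was 0.90, and the strains overlapped at both loci. SPBTRNAGLY.06 had a fitted mean of 1.19 ± 0.08 and SPBTRNAASN.02, beside qcr1, of 1.18 ± 0.07 (SE, limma adjusted p = 4.5e-07 and 2.7e-07), and both stood above their surroundings in both strains. Dispersed loci with several tRNA genes were all high: 6 of 6 were enriched in both strains, against 15.0% of all features, from 0.76 to 1.36 in WT and from 0.76 to 1.16 in rad3∆. The pair SPCTRNASER.11 (sup9) and SPCTRNAMET.07 (imt07), for example, had fitted values of 1.25 in WT and 1.06 in rad3∆. Single-gene loci were enriched in 46 of 91 cases in WT and 45 of 91 in rad3∆, against 18.0% and 18.8% of all features. Of the 6 dispersed loci with several genes, 4 in WT and 3 in rad3∆ were above their surroundings, against 33.0% and 42.9% of single-gene loci.

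Copies of one tRNA gene could lie at opposite ends of the range of RPA levels. The 151 genes had 67 different sequences, with SPBTRNAASP.05 counted separately although it is the reverse complement of the other aspartate copies. Of the sequences, 15 had at least 3 copies with enough probes of their own, 59 of 115 such genes. Within these families the lowest and highest copy differed by 0.67 to 1.96 (median 1.11), and 10 families held a copy above 0.5 and another below 0. Whether identical copies differed less than unrelated genes was not tested. Of the 6 identical proline genes, SPBTRNAPRO.06 read 0.91, 0.67 and 1.05 on the WT arrays and 1.17, 0.67 and 1.34 on the rad3∆ arrays, while SPBTRNAPRO.04 (values above) was negative on every array. The glycine copies SPBTRNAGLY.06 and SPBTRNAGLY.03 stood at 1.19 and -0.61 as means of the strains, the lysine copies SPCTRNALYS.12 and SPATRNALYS.04 at 0.85 and -0.73, and the alanine copies SPBTRNAALA.07 and SPATRNAALA.01 at 0.94 and -0.96. In each of these pairs the low copy was negative and the high copy positive on all 6 arrays. Against their surroundings the same copies stood closer together. The high and low copies had local differences of 0.62 and -0.20 for proline, 0.67 and 0.10 for glycine, and 0.75 and 0.52 for lysine. For alanine they were 0.07, at the locus that SPBTRNAALA.07 shares with SPBTRNAGLY.04, and -0.13. The narrowest families were methionine (0.59 to 1.26) and aspartate (0.65 to 1.34). Grouped by amino acid, the medians of the mean of the strains ran from -0.14 for threonine (7 measured genes) to 1.21 for arginine (8 genes in 7 loci), with wide overlap: alanine genes alone spanned -0.96 to 1.10.

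**Figure D3:**
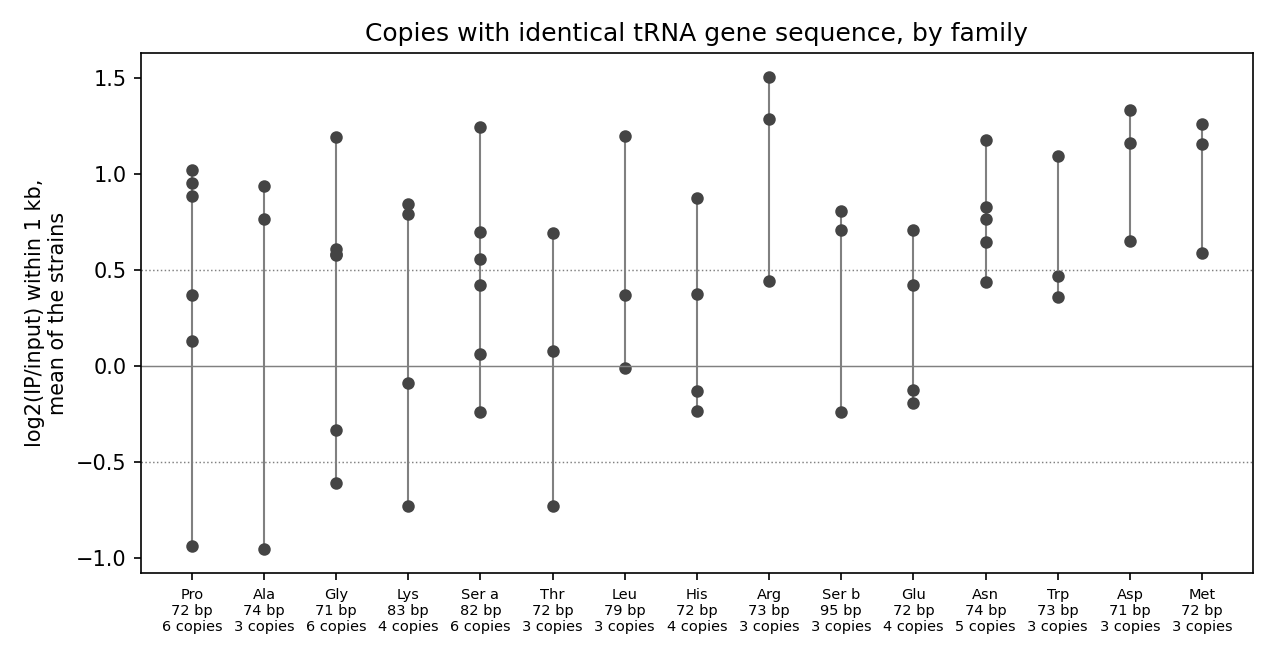
Log2(IP/input) within 1 kb of each tRNA gene, as the mean of the strains, for the 15 families of identical gene sequence with at least 3 measured copies, ordered by spread. Each point is a copy. Proline, alanine and glycine copies span from below -0.6 to above 0.9, and methionine copies only 0.59 to 1.26.

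Levels were also set out by features of the gene. The median level was 0.58 for the 108 measured genes with the B box letters and 0.94 for the 7 without, 0.59 for 111 genes with TTTT downstream and 0.99 for 4 without, 0.61 for 97 genes with TATA upstream and 0.64 for 18 without, and 0.71 for 25 genes with an annotated intron and 0.58 for 90 without. The groups without the B box or TTTT were small, and none of these differences was tested. Base composition moved with the level: loci had a median A+T content of 66.8% against 64.0% for tiles, and across loci the level correlated with A+T (r = 0.42, n = 101, against 0.05 over 5074 tiles). After a correction for base composition on each array 51 loci were enriched in WT and 42 in rad3∆, against 17.6% and 17.4% of all features. Chromosome moved with it too. Dispersed loci on chromosome III had a median fitted value of 0.66 in WT with 16 of 25 enriched, but its tiles were also high (median 0.31, 33.8% enriched), whereas 15 of 35 dispersed loci were enriched on chromosome I and 20 of 36 on chromosome II, against 11.5% and 13.4% of their tiles. A 5S ribosomal RNA gene lay in 10 of the loci. All 10 exceeded their surroundings by value in both strains, as did 47.85% of tiles for WT and 46.61% for rad3∆. Of the 10, 5 (50%) passed the enrichment call for WT and 7 (70%) for rad3∆. That call was met by 55.45% and 54.46% of all tRNA loci, and by 18.0% and 18.8% of all features. Of the 6 dispersed loci that held a long terminal repeat, 2 (33.33%) were enriched in each strain. Among dispersed loci without a repeat the shares were 54.44% and 53.33%. These differences were not tested either.

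Loci near centromeres were compared with dispersed ones. A centromere gap was taken as the longest stretch without probes among the annotated centromeric transcripts, 17159 bp long on chromosome II (chrII:1603683-1620841) and 41922 bp long on chromosome III (chrIII:1098897-1140818). That of chromosome I lay beyond position 3700000 and was not analysed here. Within 50 kb of a gap lay 11 loci with 48 tRNA genes, of which 5 loci with 32 genes had probes. In the clusters of 12 and 9 genes on chromosome II, only 2 and 1 genes had at least 3 probes within 1 kb. In the loci of 8, 2 and 1 genes on chromosome III it was 7, 1 and 1. The values of these loci thus do not describe all 32 genes. These 5 loci averaged 1.08, 0.97 and 1.32 on the WT arrays and 0.97, 0.87 and 1.07 on the rad3∆ arrays, while the 96 dispersed loci averaged 0.44, 0.31 and 0.45 in WT and 0.51, 0.29 and 0.46 in rad3∆. Near loci were higher on all 6 arrays, by 0.72 ± 0.13 (SD, n = 3) in WT and 0.55 ± 0.08 (SD, n = 3) in rad3∆, or 0.75 and 0.58 as differences of fitted values. Extending the limit to 100 kb lowered the fitted differences to 0.47 and 0.33. Most near loci held several tRNA genes, and most dispersed loci held 1. The 6 dispersed loci with several genes averaged 0.96 ± 0.15 in WT and 0.91 ± 0.13 in rad3∆. The near loci averaged 1.12 ± 0.18 and 0.97 ± 0.10 (SD, n = 3 each) and were higher on each array, by less than against all dispersed loci. The part of gene number in the near values was not tested. All 5 near loci were enriched in both strains, and the 4 with measured surroundings were above them in both, against 18.0% and 8.57% of all features in WT and 18.8% and 12.0% in rad3∆. Of the 72 tiles within 50 kb of a gap that held no tRNA gene, 19 and 18 were enriched, and those tiles averaged 0.27 ± 0.03 in WT and 0.17 ± 0.03 in rad3∆ (SD, n = 3 each). The input signal was also higher on average at the near loci, at 0.22 ± 0.14 in WT and 0.25 ± 0.11 in rad3∆ against 0.00 ± 0.06 and 0.01 ± 0.05 at dispersed loci, and the IP signal was 1.33 ± 0.08 and 1.21 ± 0.09 against 0.38 ± 0.08 and 0.42 ± 0.09 (SD, n = 3 each). The pair SPCTRNALEU.12 and SPCTRNAGLU.10 differed from the other 4. Its input was -0.67, -1.12 and -0.89 in WT and -0.42, -1.02 and -0.83 in rad3∆. Its IP was 0.49, -0.28 and -0.15 in WT and 0.36, -0.62 and -0.37 in rad3∆. Its high ratio thus came with low input rather than high IP. The part of repeated sequence in these signals was not tested.

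**Figure D4:**
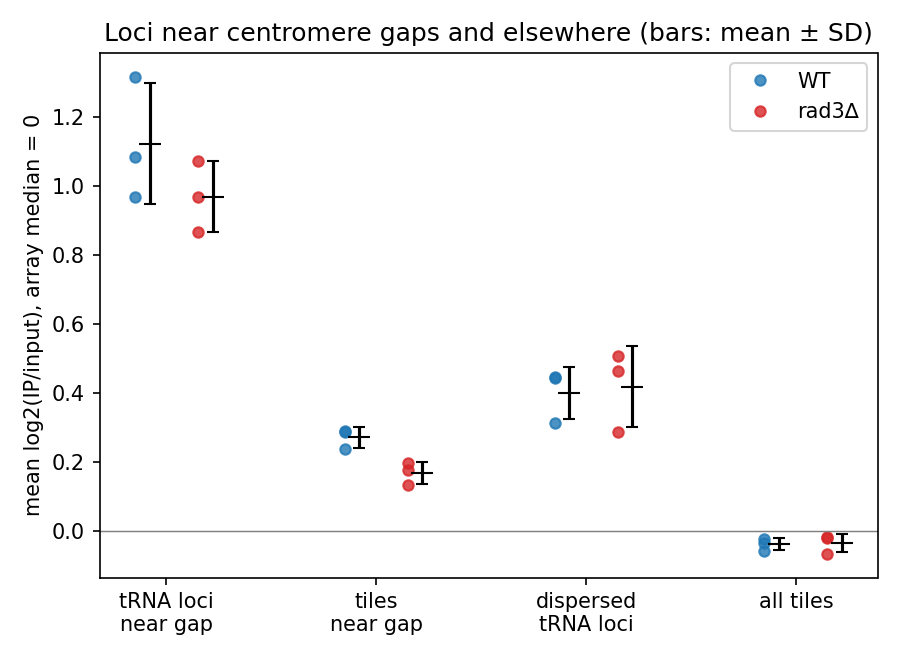
Mean log2(IP/input) per array (points) with mean ± SD of 3 arrays (bars) over the 5 tRNA loci and the 72 other tiles within 50 kb of a centromere gap, the 96 dispersed tRNA loci and all 5074 tiles. Near loci lie between 0.87 and 1.32 on every array, above dispersed loci (0.29 to 0.51) and above tiles near the gaps (0.13 to 0.29).

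The highest measured locus was the cluster of 9 tRNA genes to the right of the gap on chromosome II, SPBTRNATYR.03 to SPBTRNAARG.07 (chrII:1643849-1647355). It read 1.21, 1.11 and 1.66 on the WT arrays and 1.11, 1.14 and 1.42 on the rad3∆ arrays (fitted mean 1.34 ± 0.06 SE, limma adjusted p = 2e-07). Its level rested on 6 probes, of which 1 lay between the first and last gene and 5 outside them, so most of the cluster itself was not measured. The cluster of 12 genes on the left, SPBTRNAASN.01 to SPBTRNAASP.05 (chrII:1597996-1602417), read 0.99, 0.84 and 1.19 in WT and 1.05, 0.72 and 0.96 in rad3∆ (fitted mean 0.99 ± 0.07 SE, limma adjusted p = 4.6e-07), on 6 probes of which 3 lay left of the first gene. On chromosome III the single phenylalanine gene SPCTRNAPHE.05 (chrIII:1142192-1142264), 1374 bp to the right of the gap, read 0.93, 1.10 and 1.55 in WT and 0.97, 1.10 and 1.44 in rad3∆. At each of these 3 loci the strains overlapped. The lowest near locus was the pair SPCTRNALEU.12 and SPCTRNAGLU.10 (chrIII:1096085-1097570), with 1.17, 0.84 and 0.77 in WT and 0.79, 0.40 and 0.46 in rad3∆. The ranges overlapped narrowly. It was the one near locus lower in rad3∆ on all 3 slides, by 0.38, 0.44 and 0.32, but its fitted difference of -0.38 ± 0.14 (SE) did not pass over all features (limma adjusted p = 0.39).

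The strains were then compared. No tRNA locus passed the test of rad3∆ minus WT (limma, adjusted p under 0.05), where 0.444% of all features were higher in rad3∆ and 0% lower (23 features, or 16 without the probes over rad3, and 0), and the lowest adjusted p was 0.15. At an unadjusted p under 0.05, 4 loci were higher and 2 lower, against 7.11% and 2.84% of all features. The fitted differences had a median of -0.02 and ran from -0.38 to 0.63 with SEs of 0.11 to 0.19, so a difference below about the size of those at the ends was not resolved at single loci. Within slides, rad3∆ minus WT over all loci was 0.06, -0.03 and 0.00, a mean of 0.01 ± 0.04 (SD, n = 3 slides). On all 3 slides 18 loci were higher and 15 lower, against 17.4% and 19.1% of tiles. The levels of the loci in the strains correlated at 0.96 (n = 101, against 0.94 over tiles).

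**Figure D5:**
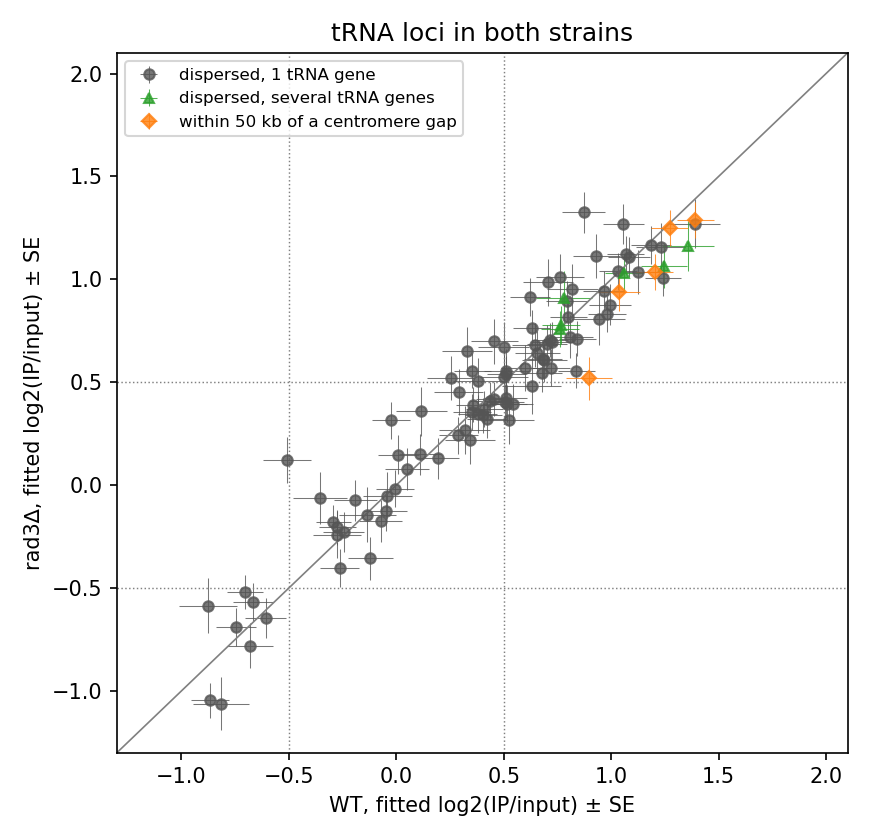
Fitted log2(IP/input) with SE of each tRNA locus in WT (horizontal) and rad3∆ (vertical), with the line of equality and dotted lines at the call limits of 0.5 and -0.5. Loci follow the line, the 5 loci near centromere gaps sit at 0.90 to 1.39 in WT and 0.52 to 1.29 in rad3∆, and SPBTRNAGLU.08 lies farthest above the line, at -0.51 and 0.12.

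The largest positive difference was at SPBTRNAGLU.08, near mug147. It read -0.29, -0.41 and -0.72 on the WT arrays and 0.42, -0.11 and 0.15 on the rad3∆ arrays, a fitted difference of 0.63 ± 0.15 (SE; limma adjusted p = 0.15). The groups did not overlap, rad3∆ was higher on all 3 slides (by 0.71, 0.31 and 0.87), and the locus was depleted in WT (-0.51) but not in rad3∆ (0.12). Without rad3∆ replicate 2 the difference was 0.81 and passed (limma adjusted p = 0.017), in a fit that called 60 of all features higher, against 23 with all arrays. SPATRNAPRO.01, already the highest dispersed locus against its surroundings, read 0.69, 0.74 and 1.02 in WT and 1.35, 0.93 and 1.53 in rad3∆, which overlapped (fitted difference 0.45 ± 0.14 SE, adjusted p = 0.23). The valine gene SPATRNAVAL.01 (0.34 ± 0.12 SE), the proline gene SPBTRNAPRO.08 (0.32 ± 0.16 SE) and SPBTRNAASN.03 (0.29 ± 0.13 SE), the last named here only because it was the remaining locus under an unadjusted 0.05, had limma adjusted p-values of 0.38, 0.56 and 0.48. The lower end held, after the centromeric pair, SPCTRNASER.07 (-0.28 ± 0.12 SE, adjusted p = 0.45), SPBTRNAPRO.04 (-0.24 ± 0.18) and SPCTRNASER.12 (-0.24 ± 0.15), with limma adjusted p-values of 0.72 and 0.66 for the last 2. At the near loci all 5 fitted differences were negative, and rad3∆ minus WT over them was -0.11, -0.10 and -0.24 by slide, against -0.11, -0.10 and -0.09 over tiles near the gaps.

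Other genes of polymerase III were examined next, and 5S genes made up all of the list but one. The list was the 5S ribosomal RNA genes and snu6, which encodes the U6 spliceosomal RNA, tested with 1 kb flanks in the same way at 33 loci, and snRNA and snoRNA genes made mostly by polymerase II served for comparison. Of the 33 loci, 16 were enriched in WT and 16 in rad3∆, against 18.0% and 18.8% of all features, and 1 was depleted in each, not the same locus. Of the 23 of them without a tRNA gene within 1 kb, 11 and 10 were enriched and 9 and 11 were above their surroundings, against 8.37% and 12.2% of all features. The 49 snRNA and snoRNA loci had 11 and 13 enriched and 10 and 9 depleted, where 18.0% and 18.8% of all features were enriched and 20.9% and 20.5% depleted, and 11 and 8 above their surroundings, against 8.46% and 12.1% of all features. snu6 was low, at -0.92, -0.53 and -1.24 on the WT arrays and -0.30, -0.36 and -0.50 on the rad3∆ arrays, apart by a narrow margin, with fitted values of -0.95 ± 0.10 and -0.44 ± 0.10 (SE). No locus of either list passed the strain test (limma; at an unadjusted p under 0.05, 2 loci of each list were higher, against 7.18% and 7.14% of all features, and 1 of the first list and 0 of the other were lower, against 2.85% and 2.84%).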

How the data were processed

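The authors deposited Agilent Feature Extraction output with, per the file headers, processed intensity values (background-subtracted, detrended, dye-normalized) and a log10 ratio, red over green, matched by the deposited signals within 0.01 log2 units at over 99.7% of probes. Feature Extraction was version 10.7.3.1 per the submitters' processing notes, but 10.7.1.1 for both replicate 1 arrays per the file headers. IP was green in replicates 1 and 2 and red in replicate 3, per the labels. The input label of rad3∆ replicate 3 gives cdc25-23, and the array was kept by its title.

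Array positions (NCBI build of Feb2002 per the file headers) were compared with ASM294v3 by base composition: all 107 segments of 100 kb in scope matched within 10 bp, covering 36405 probes (85.4%), and 211 flagged nuclear probes were left out. Log2(IP/input) was centred on each array's median nuclear probe and averaged per tRNA locus and per 2 kb tile (at least 3 probes, 5175 features). limma 3.58.1 in R 4.3.3 fitted strain means with a dye term (3 residual and 8.32 prior degrees of freedom), two-sided. Same-numbered arrays shared a slide per the file headers, and their deviations correlated (0.41, 0.40 and 0.62). The fit was tested on simulated data. Python 3.11.15 (numpy 2.4.6, pandas 2.3.3, matplotlib 3.10.9) did the rest.

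Members and lists were chosen with earlier results of these data known. Named among loci with at least 4 probes were the 6 highest and 6 lowest by the mean of the strains, the 4 largest strain differences each way, the 3 highest and lowest against their surroundings, and the highest and lowest near each gap. Amino acids follow gene IDs, since 5 genes whose ID reads aspartate carry the product name of asparagine. normexp used spot medians, in place of the planned means. srp7 was not analysed here.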

Additional observations from a re-analysis of the deposited data

How the results depend on the processing

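The number and signal of 6 arrays limit all values, and the dimmest array, rad3∆ replicate 2, carries the least. Of the recomputed counts and means, 227 stayed within 1.5 times, or within 1 SD, of the value given and 31 did not. Centring on the mode lowered the WT mean over loci (fitted 0.45) to 0.33. Flanks of 0.5 kb gave fitted means of 0.59 in WT and 0.61 in rad3∆ with 5 and 4 depleted loci, against 20.6% and 20.2% of all features. Flanks of 2 kb gave 0.34 and 0.33 with 5 and 3 loci below their surroundings. Probes well above background left 4 depleted and 1 below in rad3∆, where 17.7% of all features were depleted. Loci below their surroundings, 0 in each strain, numbered 2 and 2 with normexp and with the replicate block, 1 in WT without the dye term, 1 and 1 with the GC correction and 3 and 2 without probes over tRNA genes. Apart from the replicate block, the share of all features below was not computed for these alternatives. A limit of 1 in place of 0.5 left 16 enriched and 0 depleted loci in WT and 18 and 2 in rad3∆. The share of all features at that limit was not computed. Within 100 kb of a gap the near loci exceeded dispersed ones by 0.47 and 0.33, and within 25 kb by 0.73 and 0.56. SPATRNALYS.01 turned from -0.22 to 0.0692 against its surroundings with 0.5 kb flanks. The causes were not tested.

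Leaving out 1 array gave 48 to 57 enriched loci in WT and 49 to 59 in rad3∆, against 17.4% to 18.6% and 17.4% to 19.5% of all features. Depleted loci numbered 8 to 9 and 7 to 8, against 19.25% to 21.8% and 19.15% to 21.4%. Loci above surroundings numbered 0 to 41 in WT and 4 to 52 in rad3∆, against 0% to 10.7% and 0.445% to 12.5%. There were 0 to 1 below in each strain. In the strain comparison 0 to 1 loci were higher in rad3∆ and 0 lower, against 0 to 60 and 0 to 3 of all features. Means ranged over 0.42 to 0.48 and 0.40 to 0.51, and near minus dispersed over 0.69 to 0.76 and 0.54 to 0.63. Paired by slide, the fit changed no call of the strain comparison at a tRNA locus, and 50 and 54 loci were enriched, against 16.15% and 16.9% of all features. Probes over rad3 left out and the nearest of all probe-free stretches were alternatives chosen after seeing the data and changed no count of tRNA loci given above beyond 46 in place of 45 above their surroundings in rad3∆, while the first lowered the features higher in rad3∆ from 23 to 16.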
